A study of Fukomys damarensis and Heterocephalus glaber and Cavia porcellus with 28 samples.

Results

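Bile leaves the liver through ducts lined by cholangiocytes, the epithelial cells that modify bile by moving chloride, bicarbonate and water across the duct wall. Cholangiocytes arise from the same embryonic progenitor as hepatocytes, the main cells of the liver, and are told apart from them by simple-epithelial keratins, adhesion and junction proteins, secreted osteopontin and a chloride channel. A list of 9 such markers was set against the liver expression table of 4 rodent species, and 7 of them were found by symbol among its 13928 rows: Epcam, Cdh1, Cldn4, Krt7, Krt19, Spp1 and Cftr. Sox9 and Muc1, the remaining members, had no row and were not analysed here. The genes were chosen from liver values in part, since the list was drawn up with liver differences between the species already known, Epcam among them. Their liver values, differences and counts are therefore a description, given without p-values and in support of nothing, and p-values are given for the markers in heart, which the choice did not use.

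RNA sequencing of total RNA depleted of ribosomal RNA was made from flash-frozen liver and heart of Heterocephalus glaber (naked mole-rat), Fukomys damarensis (Damaraland mole-rat), Cavia porcellus (guinea pig) and Mus musculus (mouse), and the labels name no treatment. Liver came from 4 male naked mole-rats aged 13 to 17 months, 5 Damaraland mole-rats aged 36 to 48 months of which 4 were male and 1 female, 3 male guinea pigs aged 2.3 months and 2 male mice aged 2 months. The hearts were those of 3 mice, 3 guinea pigs, 3 naked mole-rats and 5 Damaraland mole-rats, all male and of the same ages as the livers. The 28 libraries came from 18 animals, 10 of which gave both tissues, and the label of 1 Damaraland animal gives different ages for its heart and its liver. Strains are not stated. Age and species cannot be told apart in this design, and since each library is whole tissue, neither can fewer duct cells and less RNA per duct cell.

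The liver libraries held 11220505 to 21467939 reads over the genes of the table and the heart libraries 4089633 to 26985779, the lowest being heart replicate 3 of the naked mole-rat. The deposited values are on a log2-like scale on which a gene with 0 reads stands at 4.2893 in liver and 5.3645 in heart, called the floor below. Doubling a gene from 10 reads raises its liver value by 0.39, and doubling a gene with many reads by 0.97, so differences of rare genes are compressed. The values contain no correction for gene length between species, and how genes were matched across species is not given in the sources used here. Folds below are ratios of mean scaled reads, which are reads divided by the size factor of the library. The livers carried the hepatocyte markers of their label: albumin (Alb) lay between 19.31 and 21.33 and the hepatocyte transcription factor Hnf4a between 12.48 and 13.69 over all 14 libraries.

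The 7 markers did not share an order of species in liver. By species means, the naked mole-rat had the highest Epcam and Cftr and the lowest Cdh1, the guinea pig the highest Krt19, Krt7 and Cldn4, the Damaraland mole-rat the highest Cdh1, and the mouse the highest Spp1 and the lowest Krt19, Epcam, Cftr and Cldn4. Summed over the 7 genes, scaled reads ran from 2757 to 3565 in the naked mole-rat, from 3380 to 5817 in the Damaraland mole-rat, from 4336 to 4955 in the guinea pig and from 2322 to 2683 in the mouse. Most of each sum came from 1 gene. This was Epcam in the naked mole-rat, with mean scaled reads of 2290. It was Cdh1 in the Damaraland mole-rat, guinea pig and mouse, with 4344, 3105 and 1967.

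**Figure D1:**
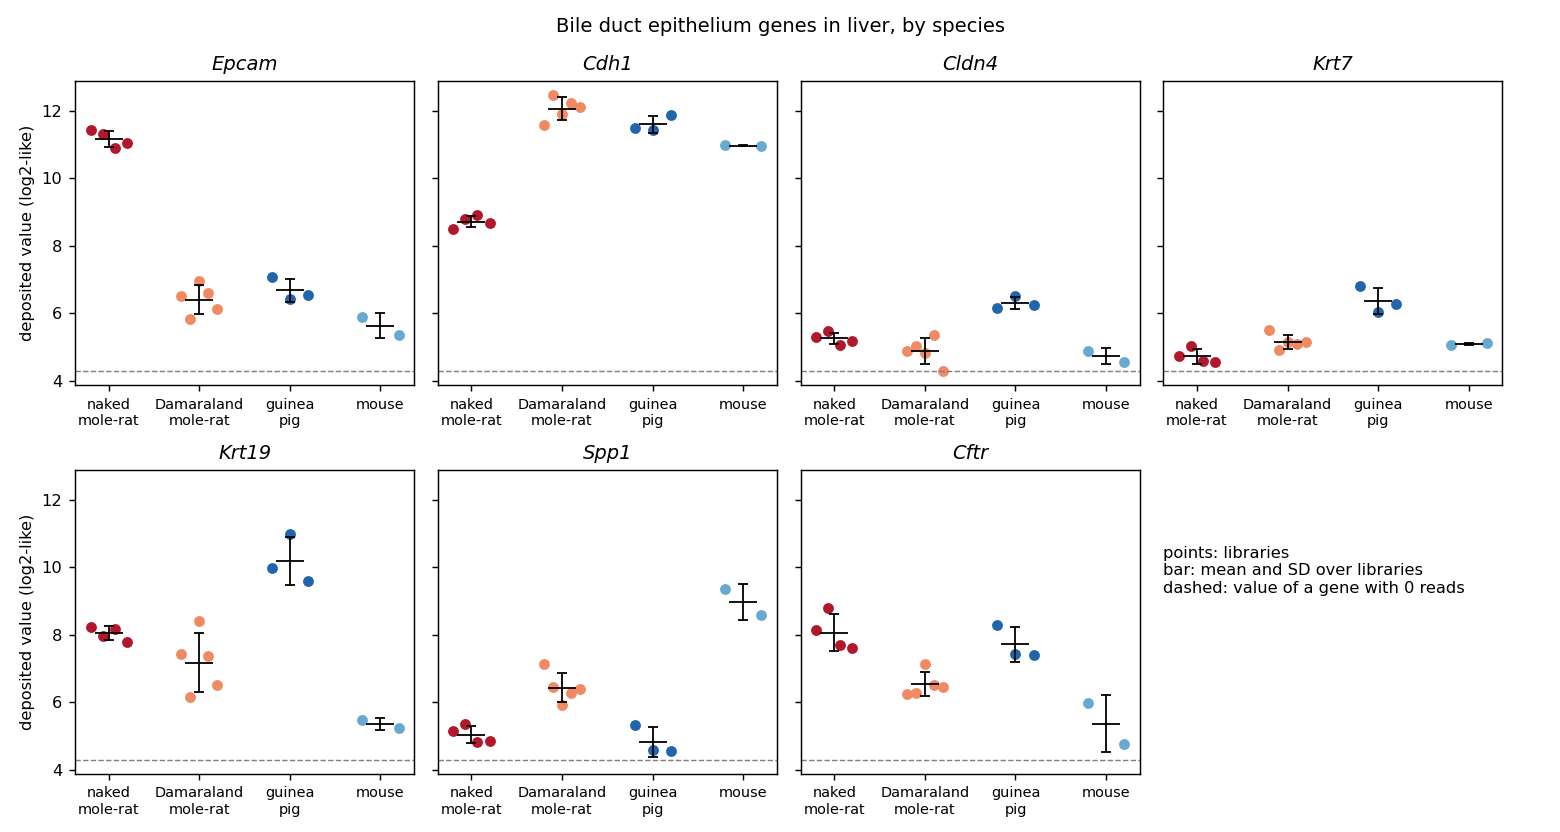
Deposited log2-like values of the 7 bile duct epithelium markers in liver, 1 point for each library, with the mean and SD of each species and a dashed line at the value of a gene with 0 reads. Epcam stood between 10.91 and 11.42 in the naked mole-rat and at 7.08 or lower elsewhere, Cdh1 was lowest in the naked mole-rat, and Krt19 was highest in the guinea pig.

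Among the adhesion and junction genes, Epcam, a homophilic adhesion molecule of simple epithelia that in adult liver marks duct cells and progenitors, set the naked mole-rat apart. The log2-like Epcam values were 11.42, 11.32, 10.91 and 11.04 in naked mole-rat replicates 1 to 4, and 6.52, 5.84, 6.95, 6.60 and 6.12 in Damaraland mole-rat replicates 1 to 5. In the guinea pigs the values were 7.08, 6.42 and 6.54, and in the mice 5.90 and 5.37. Every naked mole-rat was above every other animal, while the Damaraland mole-rat and guinea pig ranges overlapped and the mouse reached into the Damaraland range. The reads behind these values were 1817 to 2833 in the naked mole-rat, 27 to 123 in the Damaraland mole-rat, 62 to 142 in the guinea pig and 16 to 23 in the mouse. Mean scaled reads of the naked mole-rat were 42.8 times those of the Damaraland mole-rat, 32.9 times those of the guinea pig and 118 times those of the mouse. On the log2-like scale the naked mole-rat mean was 11.17 ± 0.24 (SD, n = 4) and its difference from the mean of the other species was 4.93 (SE 0.20).

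Cdh1 encodes E-cadherin, the calcium-dependent adhesion protein of epithelial junctions, which hepatocytes around the portal tracts carry as well as duct cells. It was lowest in the naked mole-rat, at 8.50, 8.80, 8.91 and 8.68. The Damaraland mole-rats stood at 11.58, 12.47, 11.92, 12.24 and 12.13, the guinea pigs at 11.50, 11.43 and 11.88, and the mice at 10.98 and 10.96. All 4 naked mole-rats were below all other animals, the mice were next, and the Damaraland mole-rat and guinea pig ranges overlapped. The gene was well covered in every species, with 295 to 521 reads in the naked mole-rat and 1684 to 6143 elsewhere. The mean scaled reads of the Damaraland mole-rat, guinea pig and mouse were 11.2, 8.04 and 5.09 times those of the naked mole-rat. The naked mole-rat mean of 8.72 ± 0.17 (SD, n = 4) differed from the mean of the other species by -2.82 (SE 0.15). Epcam and Cdh1, both adhesion molecules of the same epithelium, thus differed in opposite directions in the same 4 livers.

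Cldn4, a claudin of tight junctions, was close to the floor outside the guinea pig. Its values were 6.18, 6.52 and 6.25 in the guinea pigs, 5.30, 5.47, 5.07 and 5.20 in the naked mole-rats, 4.88, 5.05, 4.84, 5.37 and 4.29 in the Damaraland mole-rats, and 4.90 and 4.57 in the mice. The guinea pigs lay above all other livers, the Damaraland mole-rats overlapped both the naked mole-rats and the mice, and the naked mole-rats lay above both mice. The reads were 55 to 69 in the guinea pig, 7 to 11 in the naked mole-rat, 0 to 11 in the Damaraland mole-rat and 1 to 3 in the mouse. Mean scaled reads of the guinea pig were 4.87 times those of the naked mole-rat. The Damaraland library with 0 reads, of 11704633 in all, allows up to 0.256 RPM (reads per 1000000 reads of the library), from a limit of 3 reads that covers counting error only. Cldn4 fell just under the filter on low values, with a mean over all livers of 5.277 against a threshold of 5.289.

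The keratins of the list, intermediate filament proteins of duct cells that adult hepatocytes largely lack, were both highest in the guinea pig. Krt19 stood at 9.99, 10.97 and 9.59 in the guinea pigs, at 8.24, 7.97, 8.18 and 7.79 in the naked mole-rats, at 7.43, 6.16, 8.40, 7.37 and 6.49 in the Damaraland mole-rats, and at 5.48 and 5.23 in the mice. Every guinea pig was above every other animal and both mice were below every other animal, while the mole-rats overlapped: Damaraland liver replicate 3, at 8.40, was above all 4 naked mole-rats. The reads were 1080 to 2376 in the guinea pig, 154 to 298 in the naked mole-rat, 41 to 420 in the Damaraland mole-rat and 12 in each mouse. Mean scaled reads of the guinea pig were 5.35, 9.30 and 107 times those of the naked mole-rat, Damaraland mole-rat and mouse. The difference of the guinea pig from the mean of the other species was 3.32 (SE 0.35), with a mean of 10.18 ± 0.71 (SD, n = 3).

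Krt7, the other keratin of duct cells, had few reads in all species. The guinea pigs had values of 6.81, 6.05 and 6.29 from 109, 40 and 65 reads. The naked mole-rats had 4.75, 5.05, 4.59 and 4.57, the Damaraland mole-rats 5.50, 4.91, 5.15, 5.10 and 5.17, and the mice 5.07 and 5.11. Outside the guinea pig no library held more than 13 reads, and the naked mole-rat libraries held 1 to 4. The guinea pigs were above all others, the Damaraland mole-rats overlapped both the mice and the naked mole-rats, and all 4 naked mole-rats lay below both mice. The guinea pig carried 6.54 times the mean scaled reads of the Damaraland mole-rat and 8.23 times those of the mouse, and its difference from the other species was 1.39 (SE 0.18). Krt7 passed the filter by the narrowest margin of the 6 markers that entered the liver fit, with a mean of 5.293, and passed through its guinea pig values. Keratins and claudins are families of similar sequence, and how reads shared by family members were assigned is not given in the sources used here, so their values are uncertain to that extent.

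Spp1, which encodes the secreted phosphoprotein osteopontin, was highest in mouse liver. The mice had values of 9.35 and 8.58, the Damaraland mole-rats 7.13, 6.45, 5.92, 6.27 and 6.38, the naked mole-rats 5.14, 5.35, 4.81 and 4.84, and the guinea pigs 5.32, 4.59 and 4.56. The mice lay above all other animals and the Damaraland mole-rats above all naked mole-rats and guinea pigs, which overlapped each other. The reads were 476 to 522 in the mouse, 39 to 93 in the Damaraland mole-rat, 3 to 8 in the naked mole-rat, and 15, 1 and 1 in the guinea pigs. Mean scaled reads of the mouse were 8.71 times those of the Damaraland mole-rat. The difference of the mouse from the mean of the other species was 3.54 (SE 0.28), with a mean of 8.97 ± 0.55 (SD, n = 2). The mouse livers also carried transcripts from the list for pancreatic acinar cells, with a summed level of 288 to 457 scaled reads against at most 9.56 in any other liver. The elastase gene Cela1 held 367 to 380 reads in the mice, while Cpa1, Ctrb1 and Cel were at 0 reads in both mice; the part of this signal in the Spp1 level was not tested.

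Cftr, the chloride channel of the apical membrane of duct cells, was higher in the naked mole-rat and guinea pig than in the Damaraland mole-rat and mouse. Its values were 8.15, 8.79, 7.70 and 7.61 in the naked mole-rats, 8.30, 7.43 and 7.41 in the guinea pigs, 6.26, 6.27, 7.14, 6.52 and 6.46 in the Damaraland mole-rats, and 5.97 and 4.77 in the mice. The naked mole-rat and guinea pig ranges overlapped, no Damaraland mole-rat reached either of them, and the mice were lowest. The reads were 202 to 292, 164 to 396, 38 to 146, and 25 and 3 in the same order. Mean scaled reads of the naked mole-rat were 4.07 times those of the Damaraland mole-rat and 1.34 times those of the guinea pig. The differences from the mean of the other species were 1.52 (SE 0.26) in the naked mole-rat, 1.06 (SE 0.28) in the guinea pig, -0.52 (SE 0.24) in the Damaraland mole-rat and -2.07 (SE 0.33) in the mouse.

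**Figure D2:**
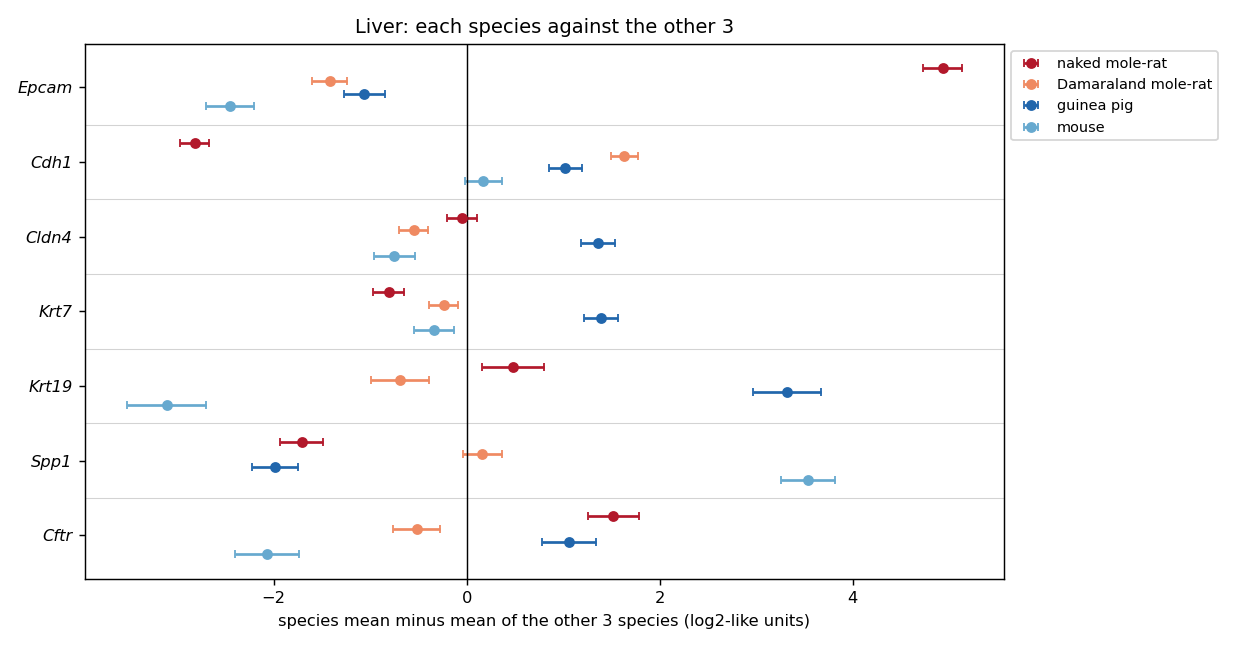
Difference of each species' mean liver value from the mean of the other 3 species for each marker, in log2-like units, with bars of 1 SE; the row of Cldn4 comes from the fit without a filter on low values. The naked mole-rat has the highest difference for Epcam, at 4.93, and the lowest for Cdh1, at -2.82, and the guinea pig is above 1 for 5 of the 7 genes.

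For all genes, a call was set at a limma adjusted p under 0.05 together with an absolute difference of at least 1, in a fit of the 10887 liver genes that passed the filter. Since the list was drawn up with liver differences known, how many of its members met this rule follows in part from the choice, and the counts are only set beside the shares of all genes. In the naked mole-rat 4 of the 6 markers in the fit met it, Epcam and Cftr on the higher side and Cdh1 and Spp1 on the lower, beside 30.9% of all genes, 15.5% higher and 15.4% lower. In the Damaraland mole-rat 2 of 6 met it, Cdh1 with a difference of 1.63 (SE 0.14) and Epcam with -1.42 (SE 0.18), beside 27.9% of all genes, 15.1% higher and 12.9% lower. In the guinea pig all 6 met it, Krt19, Krt7, Cftr and Cdh1 higher and Spp1 and Epcam lower, beside 29.7% of all genes, 14.2% higher and 15.5% lower. Krt7 entered the fit through its guinea pig values and so had to differ there. The guinea pig count was 3 (Krt19, Spp1 and Cftr) without guinea pig replicate 3, and 4 without replicate 1 or replicate 2. In the mouse 4 of 6 met it, Spp1 higher and Krt19, Cftr and Epcam lower, beside 34.6% of all genes, 16.4% higher and 18.2% lower. The 4 comparisons use the same libraries, so a species that stands apart also shifts the differences of the others. The lower Epcam calls of the Damaraland mole-rat, guinea pig and mouse are set against a mean that holds the naked mole-rat, at 11.17. Guinea pig Epcam, with a mean of 6.68, was above the means of the Damaraland mole-rat and mouse, at 6.41 and 5.64.

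Within a species, animals differed more in some markers than in others. The Damaraland mole-rats spread widest in Krt19, over 2.24 units or 7.97-fold in scaled reads, from liver replicate 2 at 6.16 to liver replicate 3 at 8.40. Damaraland replicate 3 was the highest of its species for Krt19, Epcam and Cftr and the lowest for Spp1, and replicate 2 was the lowest for Krt19, Epcam and Krt7 and the highest for Cdh1. Over the 5 Damaraland animals, Epcam spread by 3.54-fold, Cftr by 2.47-fold and Cdh1 by 1.87-fold in scaled reads. The female, replicate 4, lay inside the range of the 4 males for Epcam, Krt19, Krt7, Spp1, Cftr and Cdh1 and was the highest for Cldn4, at 5.37. Over the 4 naked mole-rats the spread in scaled reads was 1.36-fold for Cdh1, 1.43-fold for Krt19, 1.44-fold for Epcam and 2.56-fold for Cftr; Krt7 and Spp1, with at most 8 reads there, are given no fold. Guinea pig replicate 1 was the highest of its species for Epcam, Krt7, Spp1 and Cftr, and replicate 2 for Krt19 and Cldn4.

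**Figure D3:**
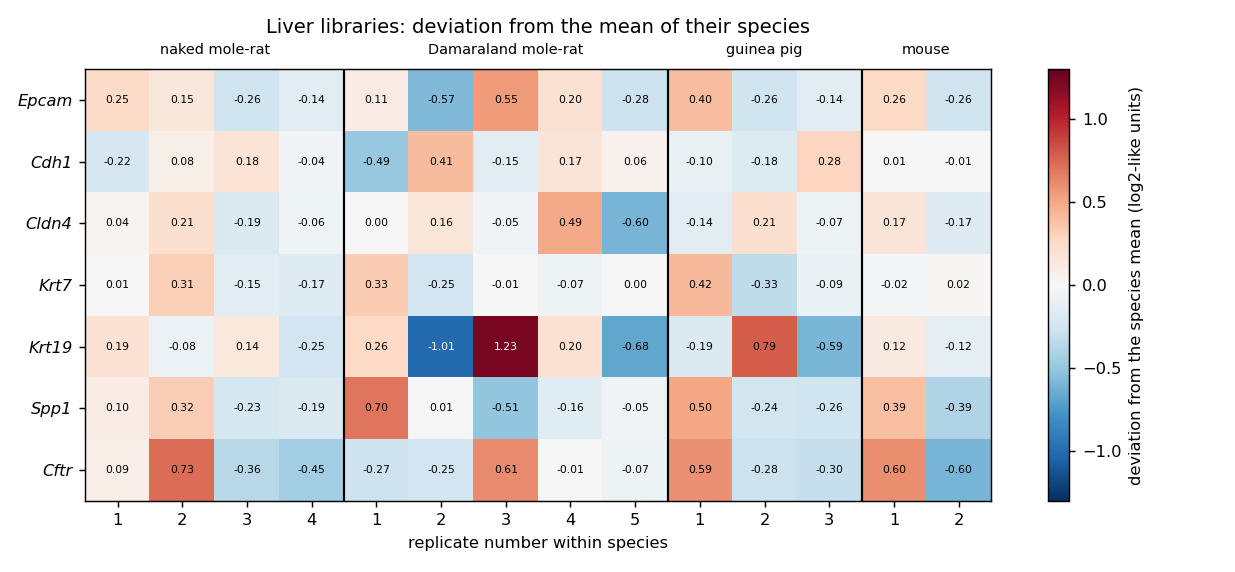
Deviation of each liver library from the mean of its species for the 7 markers, in log2-like units, with libraries grouped by species along the horizontal axis. Damaraland replicate 3 deviates by 1.23 for Krt19, 0.55 for Epcam and 0.61 for Cftr, and replicate 2 by -1.01 and -0.57 for Krt19 and Epcam.

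A wider list of 32 other biliary epithelium genes, 27 of which had a row and 24 of which were tested, gave context to the 7 markers. This list and those below were also drawn up with earlier results of these data known. Genes were named from them mainly by the size of their naked mole-rat liver difference, so the liver p-values printed for them are a description only. In the naked mole-rat 5 of the 24 were called, all of them higher, beside the 15.5% of all genes called higher and 15.4% called lower in that species, and the median difference was 0.40, against -0.02 over all genes. Prom1, a membrane glycoprotein of duct and progenitor cells, rose by 2.63 (SE 0.22, limma adjusted p 1.12e-08), with values of 8.84 to 9.12 in the naked mole-rats and at most 7.16 in any other liver. The tetraspanin Tspan8 differed by 1.35 (SE 0.22, limma adjusted p 3.76e-05) and the related membrane protein Tm4sf4 by 1.32 (SE 0.17, limma adjusted p 1.86e-06), but both overlapped the Damaraland mole-rat, whose Tm4sf4 ran from 13.16 to 13.83 beside 13.18 to 13.67. The remaining called genes were the laminin chain gene Lamb3, at 1.14, and the polycystin gene Pkd2, at 1.02. In the Damaraland mole-rat 2 of the 24 were higher and 3 lower (median -0.07), beside 15.1% and 12.9% of all genes. In the guinea pig 5 were higher and 3 lower (median 0.40), beside 14.2% and 15.5%, and in the mouse 2 and 7 (median -0.51), beside 16.4% and 18.2%. The keratin pair Krt8 and Krt18, which hepatocytes share with duct cells, was well expressed in all species, with species means of 11.56 to 12.34 and 10.83 to 11.68, a narrower range than that of Krt19, whose species means ran from 5.36 to 10.18.

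The junction partners of Cdh1 and the claudins moved in both directions in the naked mole-rat: of 16 tested of 18 listed, 5 were higher and 4 lower, with a median of 0.33, beside 15.5% of all genes higher and 15.4% lower. The lower genes included the claudins Cldn2, at -2.36 (SE 0.19, limma adjusted p 5.97e-09), and Cldn14, at -2.09 (SE 0.17, limma adjusted p 6.51e-09), as well as Jup and Cldn12. The higher genes were Cldn1, at 1.84 (SE 0.41, limma adjusted p 0.000711), the desmosomal cadherins Dsc2 and Dsg2, and the tight junction genes F11r and Ocln. Of the Notch and YAP genes, pathways that direct liver progenitors to the duct fate, 17 of 21 were tested in the naked mole-rat: 3 were higher, the transcription factor gene Tead4 at 1.97, the tumour suppressor Nf2 at 1.07 and the receptor Notch2 at 1.03, and the YAP gene Yap1 was lower at -1.19. The median over the list was 0.14.

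The lists for other cells of the liver moved beside the markers, and their part in the marker values was not tested. In the guinea pig, where the keratins were highest, the lymphocyte list summed to 1480 to 1990 scaled reads against 20.3 to 51.6 in the other livers, with both tested genes, Cd3e and Cd79a, higher. The guinea pig endothelium list was higher for 4 of 7 genes and summed to 11679 to 15159, against 4385 to 11224 elsewhere, the stellate and portal fibroblast list for 4 of 9, and the macrophage list for 3 of 4, beside 14.2% of all genes called higher in that species. Counts for the naked mole-rat stand beside 15.5% of all genes higher and 15.4% lower. In the naked mole-rat the fetal liver and progenitor list had 2 of 7 genes called, both higher, Igf2 by 4.33 (SE 0.21, limma adjusted p 1.01e-11) and Afp by 3.60 (SE 0.60, limma adjusted p 4.44e-05). Afp ran from 6.29 to 11.46 over the 4 naked mole-rats, unlike Epcam, whose range there was 0.52. The hepatocyte list of the naked mole-rat had 1 gene higher and 2 lower of 14, Tat at 1.01, Tdo2 at -2.59 and Apoa2 at -4.58, and stellate and portal fibroblast genes went both ways, with Thy1, Lum and Dcn lower and Pdgfrb and Lrat higher. Of the other naked mole-rat lists, Vwf at 1.24 was the called gene of 7 endothelial genes and Cd5l at 1.09 that of 4 macrophage genes. Cd3e and Cd79a were called lower there against a mean that holds the guinea pig, where the lymphocyte list was highest. That list summed to 20.3 to 51.6 scaled reads in the naked mole-rat, 33.1 to 46.3 in the Damaraland mole-rat and 41.3 to 44.2 in the mouse. The cell division gene that was tested differed by -0.47 and was not called. For gut epithelium, Lgals4 was higher, at 3.38, and Tff3 lower, at -1.49, of 5 tested. The gut marker Cdh17 ran from 5.11 to 7.42 in the naked mole-rat and from 4.29 to 6.95 elsewhere, and the gut factor Cdx2 was at 0 reads in all 14 livers.

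In the mouse, where Krt19, Epcam and Cftr were lowest, 3 of 7 endothelial genes, 4 of 9 stellate and portal fibroblast genes and 2 of 4 macrophage genes were lower, beside 18.2% of all genes. The Damaraland mole-rat had 3 gut genes higher and 1 lower of 5, beside 15.1% and 12.9% of all genes. The summed gut list was highest in the mouse, at 1042 to 1699 scaled reads against at most 924 elsewhere, and the fatty acid binding protein gene Fabp2 held 1328 to 1330 reads in the mice. The levels of the pan-endothelial marker Pecam1 were 8.75 ± 0.28 (SD, n = 4) in the naked mole-rat, 8.64 ± 0.21 (SD, n = 5) in the Damaraland mole-rat, 10.16 ± 0.18 (SD, n = 3) in the guinea pig and 8.36 ± 0.11 (SD, n = 2) in the mouse. The macrophage marker Cd68 had species means of 7.60, 9.20, 10.13 and 6.39 in the same order.

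The genes whose values ran most like Epcam over the 14 livers were Prkar1b, a regulatory subunit of protein kinase A (Pearson r 0.986), the adhesion molecule Negr1 (0.985) and the kinase Wnk2 (0.985). Like Epcam they were highest in the naked mole-rat, with Prkar1b means of 9.78 there and 5.60, 5.61 and 4.92 in the Damaraland mole-rat, guinea pig and mouse. For Krt19 the nearest were Bbs1 (0.948), Zfp583 (0.944) and the matrix protein gene Npnt (0.939), each highest in the guinea pig. These correlations were the highest of 10886 genes, the 14 points fall into 4 species clusters, and they are given as a description.

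In heart, a tissue without bile ducts, the same 7 rows were measured in a table that was transformed separately, so levels are compared within heart only. Of the 7, only Krt19 and Spp1 passed the filter on low values, with means of 6.567 and 7.75 against a threshold of 6.364. Krt19 passed through its Damaraland mole-rat values, with a mean of 6.955 there. Its means were 6.379, 6.453 and 6.224 in the naked mole-rat, guinea pig and mouse. Spp1, which cells outside the liver also secrete, was highest in the guinea pig and lowest in the mouse. The guinea pig hearts had values of 11.32, 10.35 and 9.72 from 968 to 3818 reads, the Damaraland mole-rats 7.57, 8.24, 7.52, 7.16 and 7.59, the naked mole-rats 6.52, 7.50 and 7.46, and the mice 5.97, 5.76 and 5.81 from 4 to 11 reads. All guinea pigs were above and all mice below every other heart, and the mole-rats overlapped. The guinea pig rose above the mean of the other species by 3.59 (SE 0.28, limma adjusted p 1.56e-08) and the mouse fell below it, with -2.57 (SE 0.28, limma adjusted p 5.23e-07). The naked mole-rat differed by -0.81 (SE 0.28, limma adjusted p 0.0171), short of the size threshold, and the Damaraland mole-rat by -0.21 (SE 0.24, limma adjusted p 0.451). The mouse thus had the highest Spp1 of the 4 species in liver and the lowest in heart, and the guinea pig the highest in heart with 1 to 15 reads in liver.

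Krt19 did not separate the hearts. Its values were 6.07, 6.44 and 6.62 in the naked mole-rats, 6.43, 7.00, 6.46, 6.60 and 8.27 in the Damaraland mole-rats, 6.04, 6.56 and 6.76 in the guinea pigs, and 6.64, 6.32 and 5.71 in the mice. All 4 ranges overlapped, with Damaraland heart 5 at 8.27 above all others. The limma adjusted p was 0.654 in the naked mole-rat, 0.0531 in the Damaraland mole-rat with a difference of 0.60 (SE 0.26), 0.862 in the guinea pig and 0.298 in the mouse. Since Krt19 passed the filter through the Damaraland hearts, its Damaraland difference follows in part from the filter and is only a description. The guinea pig, which was above all other animals in liver Krt19, differed from the other species by -0.07 (SE 0.31) in heart.

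Counted over both tested markers, limma called 0 of 2 in the naked mole-rat, beside 25.7% of the 10667 genes tested in heart, and 0 of 2 in the Damaraland mole-rat, beside 22.9%. It called 1 of 2 in the guinea pig, beside 23.6%, and 1 of 2 in the mouse, beside 29.3%. Voom on the recovered reads gave the same counts of 0, 0, 1 and 1. In each of the 4 species 1 of the 2 had an unadjusted limma p under 0.05, which was common among all genes in heart. Without the size threshold, 6525 to 7162 of the 10667 genes, by species, passed even the adjusted threshold. The marker with that unadjusted p was Krt19 in the Damaraland mole-rat, whose own values carried it past the filter, and Spp1 elsewhere. With array weights, which let libraries differ in reliability, Spp1 was called in the naked mole-rat too, at -1.08 (SE 0.24).

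**Figure D4:**
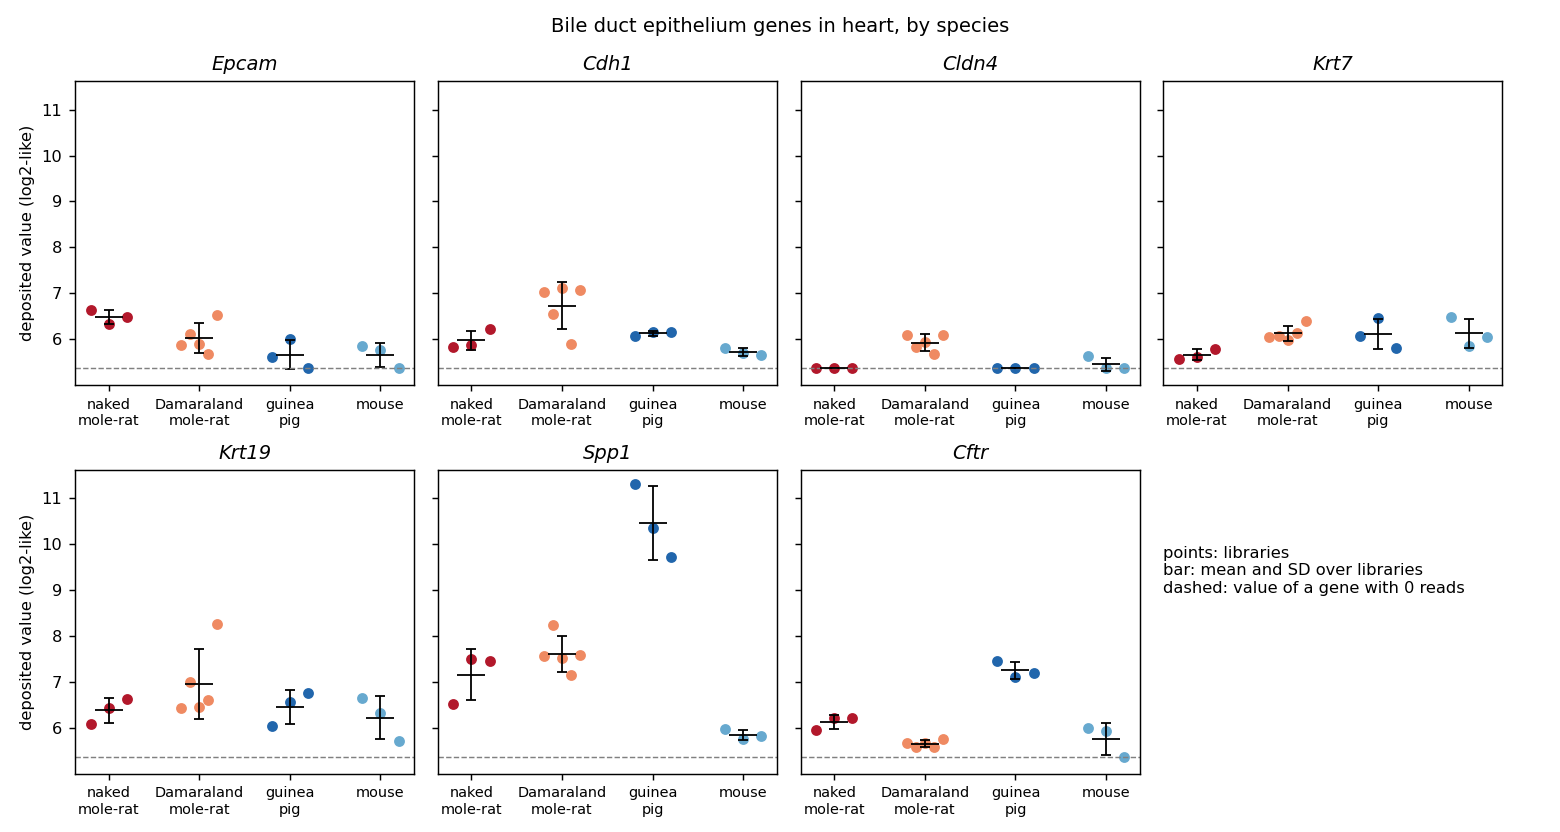
Deposited log2-like values of the 7 markers in heart, 1 point for each library, with the mean and SD of each species and a dashed line at the value of a gene with 0 reads. Spp1 and Cftr stand above all other hearts in the guinea pig, and Epcam, which was far highest in naked mole-rat liver, stays at 6.65 or lower in every heart.

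The other 5 markers were left out of the heart test by the filter, and their differences come from the fit without it. Cftr was the exception in the guinea pig, at 7.47, 7.10 and 7.20 from 88 to 160 reads, above all other hearts, which held at most 23 reads. In that fit its difference was 1.41 (SE 0.12, limma adjusted p 1.40e-06), which brought the guinea pig count to 2 markers, and the mean scaled reads were 6.79 times those of the naked mole-rat. Epcam stood at 6.65, 6.32 and 6.48 in the naked mole-rat hearts and between 5.36 and 6.52 elsewhere. Its difference there was 0.70 (SE 0.17, limma adjusted p 0.00416 in the fit without a filter), short of the size threshold. Cldn4 had 0 reads in all naked mole-rat and guinea pig hearts, which allows up to 0.133 to 0.734 RPM in the naked mole-rat, and 2 to 12 reads in the Damaraland mole-rat hearts, all of which were above all others. Cdh1 held at most 17 reads outside the Damaraland mole-rat, where it ran from 6 to 107, and Krt7 held 1 to 39 reads over all hearts.

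Liver transcripts were also present in the naked mole-rat hearts. Alb reached 592 to 1699 RPM there, against 102 to 343 in Damaraland, 24.4 to 132 in guinea pig and 11.8 to 46.2 in mouse hearts. Of 13 tested hepatocyte genes, 10 were called in the naked mole-rat heart, all of them higher, beside 1303 of all 10667 genes called higher and 1438 lower. The tested genes include Hnf4a and Tat, which passed the filter on low values through the naked mole-rat hearts, with means of 8.09 and 8.24 there. The count thus follows in part from the filter and is only a description. Summed scaled reads of the hepatocyte list were 21925 to 45243 in the naked mole-rat hearts and 7390 to 14519 in the others. The list includes Cdh2, which had species means of 12.83 to 13.39 in heart, above those of Alb in all species but the naked mole-rat. These sums are therefore not of liver transcripts alone. Epcam stood at 1.29 to 2.15 RPM in the naked mole-rat hearts and at 116 to 176 in the livers of that species. The part of these liver transcripts in the heart Epcam level was not tested. In the guinea pig hearts 1 of the 13 hepatocyte genes was called higher and 4 lower, beside 1277 and 1245 of all 10667 genes. The part of liver transcripts in the guinea pig heart levels of Spp1 and Cftr was not tested.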

How the data were processed

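Per the submitters' processing notes, cutadapt, Salmon 013.1, DESeq2 and the build GRCm38 were used, with no roles given. The tables deposited by the authors, 1 for each tissue, hold log2-like values after variance stabilisation, in 13928 rows with mouse Ensembl identifiers; 13921 matched a symbol. The 26 columns of other series were not used. Inverting the transform gave whole reads for 100% of values in every library (tolerance 0.01), which supplied depth, scaled reads and an alternative test. Genes with a mean under floor + 1 were left out. Differences came from limma 3.58.1 (R 4.3.3, empirical Bayes with a variance trend) over all libraries of a tissue, each species against the unweighted mean of the other 3, with Benjamini-Hochberg adjustment over all genes tested, and the procedure was tested on simulated data. The members and lists were chosen with earlier results of these data known. All members were described; of each other list, up to 3 called genes with the largest difference in naked mole-rat liver were named, with fixed defining markers, and further called or low genes were named after their values were seen. Alternatives covered filter, scaling, variance model, replicate block, voom and leaving out libraries.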

Additional observations from a re-analysis of the deposited data

Results flagged for a closer look

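Spp1 differed in direction between the tissues of the mouse. In liver the mouse mean was higher by 3.40 log2-like units than the mean of all other libraries, which lay between 4.56 and 7.13. In heart it was lower, with a difference of -2.42, and the other hearts lay between 6.52 and 11.32. Every mouse library was on the same side within its tissue, and the difference between tissues was not tested, since the tables were transformed separately. No library stood apart from the others of its species for any marker in the 21 groups of 4 or more libraries examined, where chance gives about 1 in 20.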

How the results depend on the processing

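Directions were compared only for the naked mole-rat and for markers that passed the filter, and none of these reversed under any alternative run. Over all species, 190 recomputed counts of called markers stayed within 1.5 times the value first given and 10 did not. Leaving out libraries gave 3 to 7 in guinea pig liver, the 3 without guinea pig replicate 3 and the 7 where Cldn4, just under the filter, entered the fit; the other ranges were 4 to 4 in naked mole-rat, 2 to 2 in Damaraland and 4 to 4 in mouse liver, and 0, 0, 1 and 1 in heart. Leaving out a mouse liver leaves 1 library, assumed to vary like the other groups. Voom without a filter, chosen after seeing the data, took in all 7 markers. It gave 4 in Damaraland liver and, in heart, 2 in naked mole-rat, 3 in Damaraland, 3 in guinea pig and 3 in mouse. The share of all genes called in that run is not set beside these counts, so they are only a description. Naked mole-rat heart had 1 without the size threshold and with array weights. Guinea pig heart had 2 without a filter and with the filter in at least 1 species, which admits Cftr through the guinea pig itself. Without the size threshold the genes called in liver rose from 3368 to 7375 in the naked mole-rat, 3039 to 7460 in the Damaraland mole-rat, 3230 to 6998 in the guinea pig and 3770 to 6940 in the mouse. In heart they rose to 6816 from 2741, to 6957 from 2439, to 6525 from 2522 and to 7162 from 3127, with the species ordered as in liver. Same-numbered libraries of different species were not taken as paired. The correlation of their deviations ran from -0.23 to 0.15 in liver and from -0.26 to 0.30 in heart. It was over 0.1 in 5 of 16 liver pairs and 2 of 18 heart pairs. With 2 to 5 libraries in a group, such correlations cannot decide whether equal numbers mark anything shared. With the number as a replicate block the counts were 4, 2, 6 and 4 in liver and 0, 0, 1 and 1 in heart. In liver, depth limits Krt7 and Cldn4, and Spp1 in the naked mole-rat and guinea pig, with 1 to 15 reads. It also limits Krt19, Epcam and Cftr in the mouse livers, with 3 to 25 reads. In heart, depth limits all markers in most species except Spp1, which was limited in the mouse, with 4 to 11 reads. Guinea pig heart Cftr held 88 to 160 reads. The p-values measure the spread between animals of a species, whose ages differ in the mole-rats and not in the guinea pigs or mice.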
